A study of Mus musculus with 9 samples.

Results

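The cathepsins other than cathepsin K were taken from the gene table by symbol: Ctsa, Ctsb, Ctsc, Ctsd, Ctse, Ctsf, Ctsh, Ctsl, Ctss and Ctsz, 10 of the 24411 gene symbols in the table. The study asked how macrophages of embryonic origin differ from those of the adult marrow after both have been expanded in culture. Bulk RNA-seq was made from 3 yolk sac (YS) lines, 3 fetal liver (FL) lines and 3 bone marrow (BM) lines, with 1 library per line. Total cells of C57BL/6 yolk sacs at E9.5, fetal livers at E14.5 or adult marrow were cultured for months in medium with recombinant human M-CSF, the growth factor that macrophages depend on. None of the lines was genetically modified, and all were kept in M-CSF. A line was the bulk culture of 1 dish or well, grown out from colonies, and the starting cells were pooled from several mice. The sources used here do not say whether lines of 1 group came from 1 pool. The p-values therefore rest on the spread between lines, part of which may be technical, and may not carry over to other pools of mice.

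Cathepsins are the proteases of the endolysosome. Most are cysteine proteases, made as inactive proenzymes that are tagged with mannose 6-phosphate, carried to the acid compartment and activated there, while cathepsins D and E are aspartic proteases and cathepsin A is a serine carboxypeptidase. In macrophages they digest phagocytosed and endocytosed protein, trim the invariant chain from MHC class II molecules, activate other proteases and, when secreted, cut extracellular matrix.

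Levels are given in TPM (transcript abundance scaled by transcript length and to the same library total), so levels of different genes can be set side by side. TPM carries no read depth, so precision can be read only from the spread of 3 lines, and a gene at 0 is described as listed at 0. Differences are of log2(TPM + 1), a scale that understates the change of genes near or under 1 TPM. A gene was tested where it reached 1 TPM in at least 3 of the 9 libraries, which left 11753 genes, and was called in limma when its fold change exceeded 2 and its false discovery rate was below 0.1. Of the 10 cathepsins, 9 were tested, and Ctse was under the minimum. The YS and FL lines were both compared with the same 3 BM lines, so these comparisons share their controls.

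The cathepsin genes together made up more than 1% of all TPM in every line, and their mix differed by origin. Ctsc, the dipeptidyl peptidase that activates granule serine proteases, was 16.4-fold higher in mean TPM in YS than in BM lines and 10.8-fold higher in FL than in BM lines. These folds depend on which BM lines are counted. Without BM line 2, which held the most Ctsc of the BM lines and stood apart in erythroid markers, they were 42.5 and 28.0. They were 13.7 and 9.03 without BM line 1, and 11.6 and 7.67 without BM line 3. Ctss, the elastinolytic cathepsin of antigen-presenting cells, was 3.10-fold lower in YS than in BM lines. Ctsa, Ctsb, Ctsd, Ctsl and Ctsz, all abundant, were not called in any comparison. Ctsf and Ctsh, both low in most lines, were called as well, on values that differed widely between lines of 1 group.

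**Figure D1:**
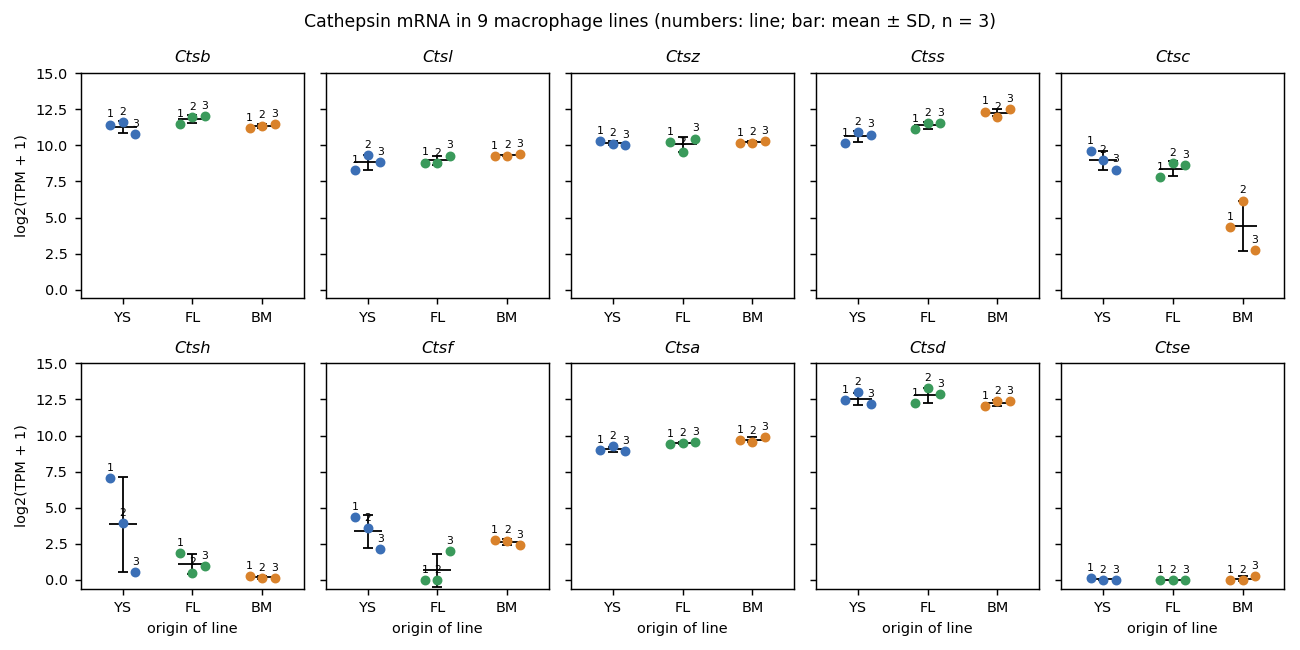
Level of the 10 cathepsin genes in each line, as log2(TPM + 1), with points numbered by line from left to right and the bar at the mean ± SD of 3 lines. The 3 BM lines sit at the bottom for Ctsc and at the top for Ctss, with no overlap with YS or FL lines, and Ctse is at or near 0 throughout.

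All 9 libraries held the macrophage markers Csf1r, Adgre1, Itgam, Cd68, Spi1, Mertk, Fcgr1 and Lyz2, whose summed TPM was 4215 to 9309 in YS, 11790 to 28520 in FL and 11720 to 13300 in BM lines, the lowest being YS line 1. Lyz2 was the most abundant of them in every line. It was called lower in YS lines than in BM lines (difference -1.60, adjusted p = 0.0538) and FL lines (-2.37, adjusted p = 0.0475). Csf1r, Adgre1, Itgam, Cd68 and Spi1 were not called in any comparison, and the remaining markers differed between groups. Fcgr1, an Fc receptor, was at 122 to 330 TPM in YS, 110 to 172 TPM in FL and 5.47, 42.1 and 1.68 TPM in BM lines (differences from BM lines 4.65 and 4.02, adjusted p = 0.00761 and 0.0142), the direction and the order of BM lines seen for Ctsc. Mertk, a receptor for apoptotic cells, was at 48.1 to 90.5 TPM in FL lines and at most 21.9 TPM in the others. Markers of fibroblasts, lymphoid cells, granulocytes, mast cells and epithelial cells summed to at most 0.80 TPM in any line, those of dendritic cells to 2.23 to 7.15 TPM and those of hepatocytes to 1.03 to 20.6 TPM. BM line 2 stood apart with 227.6 TPM of erythroid markers, against at most 8.62 TPM elsewhere. Endothelial markers, mostly Kdr, summed to 18.9 to 55.7 TPM in YS and FL lines and to 0.14 to 2.64 TPM in BM lines, a difference in the same direction as that of Ctsc, and its part in the results was not tested. The 6 osteoclast markers summed to 64.8 to 119 TPM in YS, 54.8 to 62.7 TPM in FL and 99.4 to 121 TPM in BM lines. Most of this was Nfatc1, a transcription factor, at 54.4 to 65.6 TPM in YS and FL lines and 92.8 to 114 TPM in BM lines (differences from BM lines -0.73 and -0.83, adjusted p = 0.00365 and 0.00192). Dcstamp, a fusion protein, was at 5.16 to 44.0 TPM in YS, at most 0.55 TPM in FL and 3.46 to 6.15 TPM in BM lines. Calcr was at most 0.04 TPM, Oscar at most 0.25 TPM, Ocstamp at most 3.70 TPM and Acp5 at most 6.86 TPM in any line. The part of these marker differences in the cathepsin results was not tested. The median difference of all 11753 genes was 0.11 for YS against BM, 0.09 for FL against BM and 0.02 for YS against FL on the log2 scale.

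Between 10977 and 11457 genes reached 1 TPM per library. Ctsd, Ctsb, Ctss, Ctsz, Ctsa and Ctsl ranked between 3 and 507 among all genes in every library, while Ctsf, Ctsh and Ctse ranked far lower in most. The 10 genes together made up 1.31 ± 0.29% (YS), 1.65 ± 0.36% (FL) and 1.53 ± 0.13% (BM) of all TPM (mean ± SD, n = 3 each), and the ranges of the 3 groups overlapped. Ctsd ranked between 3 and 13 among all genes in the 9 libraries. Ctss ranked 43 to 113 in YS, 17 to 28 in FL and 8 to 14 in BM lines. By mean TPM the order in YS lines was Ctsd, Ctsb, Ctss, Ctsz, Ctsa, Ctsc, Ctsl, Ctsh, Ctsf and Ctse, in which the ranges of neighbours overlapped among Ctsb, Ctss and Ctsz, among Ctsa, Ctsc and Ctsl, and between Ctsh and Ctsf. In FL lines it was Ctsd, Ctsb, Ctss, Ctsz, Ctsa, Ctsl, Ctsc, Ctsh, Ctsf and Ctse, with overlapping ranges for Ctsb with Ctss, Ctsz with Ctsa, and Ctsh with Ctsf and Ctsf with Ctse. BM lines had Ctss and Ctsd level at the top with overlapping ranges, followed by Ctsb, Ctsz, Ctsa, Ctsl, Ctsc, Ctsf, Ctsh and Ctse, where Ctsc overlapped Ctsf and Ctsh overlapped Ctse. Among all genes, Ctsc ranked 178 to 515 in YS, 357 to 794 in FL and 2523 to 9455 in BM lines.

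**Figure D2:**
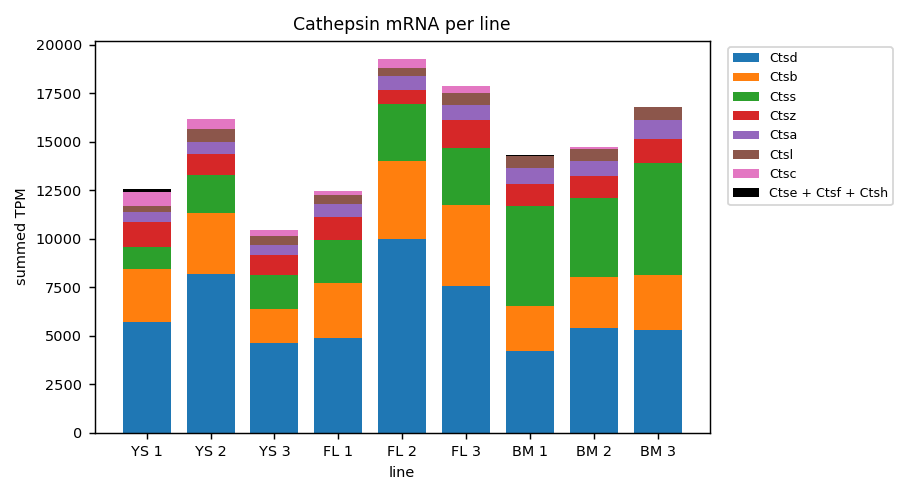
Summed TPM of the cathepsin genes in each of the 9 lines, with 1 stacked bar per line divided by gene. Ctsd and Ctsb make up the lower part of every bar, Ctss takes 27.5 to 36.2% of the bar in BM lines against 9.13 to 16.4% in YS lines, and the Ctsc segment at the top is visible in YS and FL lines and nearly gone in BM lines.

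For YS against BM lines, 3 of the 9 tested cathepsins were called, against 12.8% of all tested genes. Of these, 2 were higher in YS (Ctsc and Ctsh, background 7.57%) and 1 was lower (Ctss, background 5.22%). Past the false discovery rate at any fold were 4 members (Ctsa, Ctsc, Ctsh and Ctss), against 37.9% of all genes, and the same 4 did not overlap between the groups, against 49.0% of all genes. For FL against BM lines, 2 of 9 were called, against 10.3% of all genes: Ctsc was higher (background 6.01%) and Ctsf lower (background 4.30%). Past the rate at any fold were 3 members (Ctsc, Ctsf and Ctss; background 27.6%), and 6 did not overlap (Ctsa, Ctsb, Ctsc, Ctsf, Ctsh and Ctss; background 49.5%). For YS against FL lines, Ctsf alone was called, 1 of 9 against 3.79% of all genes. It was higher in YS (background 1.95%) and 0 members were called lower (background 1.85%), although 3 were lower at an unadjusted limma p under 0.05 (Ctsa, Ctsb and Ctss). The share of all genes at that unadjusted limit was not computed. In this comparison 3 passed the rate at any fold (Ctsa, Ctsf and Ctss; background 12.8%) and did not overlap (the same 3; background 26.1%).

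**Figure D3:**
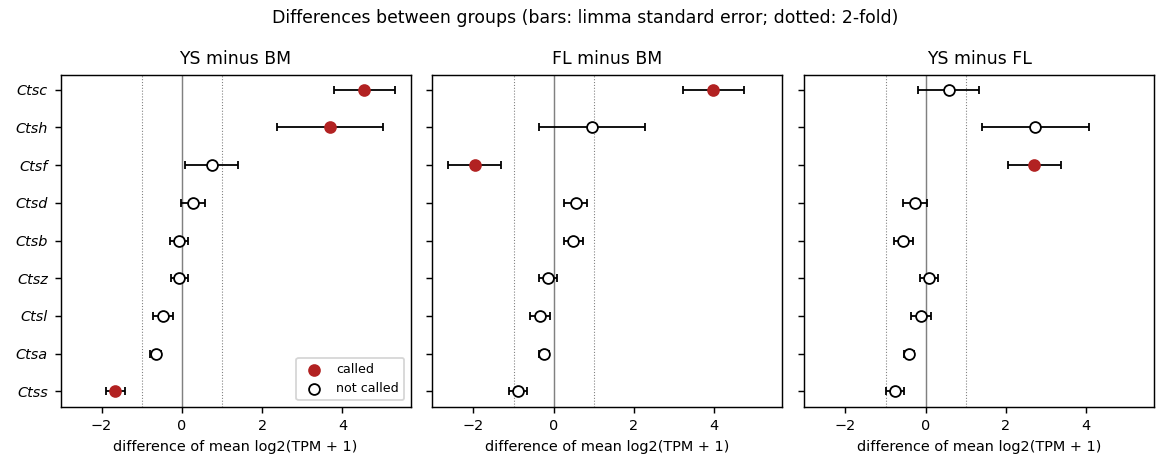
Difference of mean log2(TPM + 1) between groups for the 9 tested cathepsins, with 1 panel per comparison, limma standard errors as bars, dotted lines at 2-fold and filled points for called genes. Ctsc lies 4.54 and 3.97 to the right in the comparisons with BM lines, Ctss lies 1.65 to the left in YS against BM lines, and the bar of Ctsh is the widest.

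The median difference over the 9 tested cathepsins was -0.06 for YS against BM, -0.15 for FL against BM and -0.12 for YS against FL, so the members had no common direction. Their median absolute difference was 0.65, 0.54 and 0.55 in the 3 comparisons, against 0.36, 0.30 and 0.27 over all tested genes.

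Ctss encodes cathepsin S, an endopeptidase that stays active at neutral pH and makes the last cuts in the invariant chain before peptide loading. Lines 1 to 3 held 1149, 1967 and 1716 TPM among YS, 2200, 2949 and 2936 TPM among FL, and 5176, 4041 and 5772 TPM among BM lines. Every YS line was below every FL line, and every FL line was below every BM line. Ctss was called lower in YS than in BM lines (difference -1.65, SE 0.23, adjusted p = 0.00291), and this call held in all 20 alternatives, with differences between -1.81 and -1.43. Against BM lines the FL lines were 1.85-fold lower in mean TPM, under the 2-fold minimum (difference -0.89, SE 0.23, adjusted p = 0.0295), and without BM line 2 the difference passed it (-1.03, adjusted p = 0.0362). YS lines were 1.67-fold below FL lines (difference -0.76, SE 0.23, adjusted p = 0.0902). In bulk RNA, fewer cells of a type and less RNA per cell cannot be told apart, which holds for each difference given here.

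Ctsc encodes cathepsin C, or dipeptidyl peptidase I, which removes dipeptides from the N-terminus of granzymes and neutrophil serine proteases and so activates them. YS lines held 763, 504 and 318 TPM, FL lines 219, 430 and 397 TPM, and BM lines 19.25, 71.5 and 5.58 TPM. FL line 1, the lowest embryonic line, was still above BM line 2, the highest BM line, and the BM lines were further apart among themselves, in fold, than YS or FL lines. The differences were 4.54 (SE 0.76, adjusted p = 0.00483) for YS against BM and 3.97 (SE 0.76, adjusted p = 0.00824) for FL against BM, and both calls held in all 20 alternatives, from 3.70 to 5.43 and from 3.13 to 4.86. YS and FL lines overlapped (difference 0.57, SE 0.76, adjusted p = 0.658). BM line 2, which had the most erythroid marker RNA, also had the most Ctsc of the BM lines, and the part of these cells in its level was not tested.

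Ctsc and Ctss moved in opposite directions, and their ratio followed. YS lines had 1.51, 3.91 and 5.40 TPM of Ctss per TPM of Ctsc, FL lines 10.1, 6.86 and 7.40, and BM lines 269, 56.5 and 1034. No 2 groups overlapped in this ratio, which for BM lines follows from the levels of the 2 genes. Over the 9 libraries the log2 levels of Ctsc and Ctss had a Pearson r of -0.87, a value over lines that fall into 3 groups, given as a description. The serine proteases that cathepsin C activates in granulocytes, cytotoxic lymphocytes and mast cells were not tested in these lines: of Elane, Prtn3, Gzma, Gzmb and Cma1, 3 were listed at 0 in all lines and none reached 1 TPM in 3 libraries.

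The promoters of these 2 genes are shown because their RNA moved in opposite directions between the same groups of lines. Both windows are from RefSeq on GRCm38.p6, run from 250 bases before to 50 bases after the annotated start in the direction of transcription, and carry in capitals the core GAGGAA, on either strand (TTCCTC when read on the other), that PU.1 (Spi1), the lineage factor of macrophages, can bind. The Ctsc window is chr7:88277835-88278134 on the plus strand and the Ctss window is chr3:95526536-95526835 on the plus strand.
Ctsc: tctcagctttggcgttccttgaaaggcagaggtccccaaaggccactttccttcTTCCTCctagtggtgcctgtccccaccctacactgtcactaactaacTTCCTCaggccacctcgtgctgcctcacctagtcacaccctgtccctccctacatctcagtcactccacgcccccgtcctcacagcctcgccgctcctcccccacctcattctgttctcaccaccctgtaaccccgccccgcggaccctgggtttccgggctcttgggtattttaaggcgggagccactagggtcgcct
Ctss: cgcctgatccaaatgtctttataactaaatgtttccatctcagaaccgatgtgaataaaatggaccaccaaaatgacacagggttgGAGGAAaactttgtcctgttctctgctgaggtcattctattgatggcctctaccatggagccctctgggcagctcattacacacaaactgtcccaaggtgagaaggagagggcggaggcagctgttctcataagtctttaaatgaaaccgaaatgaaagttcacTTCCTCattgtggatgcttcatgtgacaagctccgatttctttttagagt
Ctsc held 2 matches, 196 and 149 bases before the start, both on the minus strand. Ctss held 1 match on the plus strand 164 bases before the start and 1 on the minus strand at the start itself. The core was present in 28.3% of all 32851 RefSeq promoter windows of this length, so its presence does not set these genes apart. Spi1 itself was at 364 to 427 TPM in YS, 433 to 456 TPM in FL and 370 to 417 TPM in BM lines.

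Ctsl encodes cathepsin L, an endopeptidase of broad specificity. Its level was 315, 652 and 465 TPM in YS, 446, 436 and 627 TPM in FL, and 613, 627 and 662 TPM in BM lines. BM lines were close to each other, and single YS and FL lines reached their range. The differences were -0.47 for YS against BM (SE 0.25, adjusted p = 0.189), -0.35 for FL against BM (adjusted p = 0.364) and -0.12 for YS against FL (adjusted p = 0.79), so none passed the test.

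Ctsb encodes cathepsin B, which cuts as an endopeptidase and as a dipeptidyl carboxypeptidase. Its level was 2768, 3105 and 1782 TPM in YS, 2887, 4000 and 4205 TPM in FL, and 2316, 2659 and 2873 TPM in BM lines. All FL lines were above all BM lines, the closest pair by a small margin, and the difference of 0.49 did not pass the test (SE 0.23, adjusted p = 0.183). YS lines ranged across the BM lines (difference -0.07, adjusted p = 0.845) and overlapped the FL lines (difference -0.55, adjusted p = 0.179).

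Ctsf encodes cathepsin F, another protease able to trim the invariant chain. YS lines held 19.7, 11.2 and 3.35 TPM, BM lines 5.71, 5.59 and 4.36 TPM, and FL line 3 2.96 TPM, whereas FL lines 1 and 2 were listed at 0. The FL lines were below all others, by a narrow margin for FL line 3, and YS and BM lines overlapped. Ctsf was called lower in FL than in BM lines (difference -1.97, SE 0.66, adjusted p = 0.0689) and higher in YS than in FL lines (difference 2.71, SE 0.66, adjusted p = 0.056). With 2 lines listed at 0 the fitted differences depend on the pseudocount, and over the alternatives they ran from -4.08 to -0.94 and from 1.52 to 4.88. The call against BM lines was lost without FL line 1 (-1.64, adjusted p = 0.186), FL line 2 (-1.64, adjusted p = 0.178), BM line 1 (-1.91, adjusted p = 0.178), BM line 2 (-1.92, adjusted p = 0.155) or BM line 3 (-2.07, adjusted p = 0.148), and with a pseudocount of 4 (-0.94, adjusted p = 0.133), no filter (adjusted p = 0.114) or a replicate block (adjusted p = 0.122). The call of YS against FL lines was lost without YS line 1 (2.21, adjusted p = 0.101) or FL line 2 (2.38, adjusted p = 0.163) and with the 6 libraries of these groups alone (adjusted p = 0.184).

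Ctsh encodes cathepsin H, an aminopeptidase. It was at 133, 14.5 and 0.44 TPM in YS, 2.67, 0.42 and 0.96 TPM in FL, and 0.19, 0.09 and 0.09 TPM in BM lines. YS line 1 was 302-fold above YS line 3, which lay within the FL range, so the YS lines were not alike in this gene. Ctsh passed the filter through YS lines 1 and 2 and FL line 1 alone, and without any of these it could not be tested. It was called higher in YS than in BM lines (difference 3.68, SE 1.32, adjusted p = 0.0688), and the call was lost without BM line 1 (3.73, adjusted p = 0.153), BM line 2 (3.66, adjusted p = 0.141) or BM line 3 (3.66, adjusted p = 0.158), without a filter (adjusted p = 0.11) and with the 6 libraries of these groups alone (adjusted p = 0.116). Against FL lines the YS lines were not called (difference 2.73, adjusted p = 0.233), except without YS line 3 (4.39, adjusted p = 0.0377). FL lines did not differ from BM lines past the test (difference 0.95, adjusted p = 0.662).

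YS line 1 had the highest Ctsc, Ctsf and Ctsh of all 9 lines. It also had the lowest summed macrophage markers, 4215 TPM against 7952 and 9309 TPM in the other YS lines, with Lyz2 at 1163 TPM, and the most Dcstamp, at 44.0 TPM. The part of this in its cathepsin levels was not tested.

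Ctsz encodes cathepsin Z, also called X, a carboxypeptidase that removes single residues. It was at 1249, 1112 and 1055 TPM in YS, 1179, 728 and 1419 TPM in FL, and 1145, 1166 and 1251 TPM in BM lines. FL lines spanned the widest range, with YS and BM lines inside it. The differences were -0.06, -0.15 and 0.09 for YS against BM, FL against BM and YS against FL (adjusted p = 0.853, 0.677 and 0.823).

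Ctsd encodes cathepsin D, the main aspartic protease of the lysosome. Its level was 5676, 8193 and 4606 TPM in YS, 4851, 9989 and 7551 TPM in FL, and 4189, 5377 and 5267 TPM in BM lines. It was the most abundant member in every YS and FL line and gave way to Ctss in BM lines 1 and 3. The groups overlapped in all comparisons, with differences of 0.28 (SE 0.30, adjusted p = 0.498) for YS against BM, 0.54 (adjusted p = 0.241) for FL against BM and -0.26 (adjusted p = 0.61) for YS against FL. Ctse, which encodes the other aspartic cathepsin, was listed at 0 in 7 libraries, with 0.07 TPM in YS line 1 and 0.21 TPM in BM line 3.

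Ctsa encodes cathepsin A, or protective protein, a carboxypeptidase that also keeps beta-galactosidase and neuraminidase 1 stable in a complex. It was at 506.5, 616 and 492 TPM in YS, 682, 712 and 759 TPM in FL, and 826, 764 and 950 TPM in BM lines. The 3 groups did not overlap, in the same order as for Ctss, with FL lines between the others. YS lines were 1.57-fold lower than BM lines, past the false discovery rate and under the 2-fold minimum (difference -0.65, SE 0.13, adjusted p = 0.00842). The difference from FL lines was -0.42 (SE 0.13, adjusted p = 0.0879), and FL against BM lines did not pass the test (-0.23, adjusted p = 0.236). Over the 9 libraries Ctsa and Ctss had a Pearson r of 0.94 and Ctsb and Ctsd one of 0.81, values that share the grouping of the lines.

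Ctsa and Ctsd are among the lysosomal genes long described as targets of TFEB, a transcription factor of the MiT/TFE family, which binds a CACGTG core. Their RefSeq promoters are shown with that core in capitals, since these abundant members held 2 matches each. The windows are chr2:164833523-164833822 on the plus strand, the more downstream of 2 annotated Ctsa starts, and chr7:142387778-142388077 on the minus strand for Ctsd (GRCm38.p6).
Ctsa: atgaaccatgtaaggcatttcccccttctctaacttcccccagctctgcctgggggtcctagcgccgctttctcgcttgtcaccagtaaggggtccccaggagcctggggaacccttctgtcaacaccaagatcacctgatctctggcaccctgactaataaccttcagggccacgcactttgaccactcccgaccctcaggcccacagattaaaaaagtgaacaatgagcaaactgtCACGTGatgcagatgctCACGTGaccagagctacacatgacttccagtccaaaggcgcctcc
Ctsd: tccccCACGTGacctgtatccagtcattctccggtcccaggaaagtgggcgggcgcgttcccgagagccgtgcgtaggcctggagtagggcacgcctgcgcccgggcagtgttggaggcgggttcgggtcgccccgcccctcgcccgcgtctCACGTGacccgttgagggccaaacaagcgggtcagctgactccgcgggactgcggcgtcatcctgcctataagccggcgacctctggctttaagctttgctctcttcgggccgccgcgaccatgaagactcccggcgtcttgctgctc
The matches lay 12 bases before and 5 bases after the Ctsa start, and 245 and 98 bases before the Ctsd start. CACGTG, which reads the same on both strands, was also found once each in the windows of Ctsf (79 bases before the start) and Ctsl (236 bases before), and not in those of Ctsc, Ctss, Ctsz or the other Ctsa start. It was present in 7.15% of all windows. The longer form TCACGTG, which overlaps these matches, was found in Ctsa and Ctsd and in 3.77% of all windows. RefSeq windows were matched for 7 of the 10 genes, and Ctsb, Ctse and Ctsh were not matched. Of the 4 genes of the MiT/TFE family limma called none, and in each comparison 1 was lower at an unadjusted p under 0.05 (Mitf in both comparisons with BM lines, Tfe3 in YS against FL). For this limit no share of all genes was computed. Tfeb was at 21.6, 18.6 and 27.7 TPM and Tfe3 at 69.3, 95.8 and 79.6 TPM (means of YS, FL and BM lines), and Mitf at 29.4, 23.0 and 42.7 TPM. Mitf in FL against BM lines passed the false discovery rate under 2-fold (difference -0.89, adjusted p = 0.0307).

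The proenzymes are processed and restrained by other proteins. Lgmn, which encodes legumain, the asparagine endopeptidase that cuts cathepsins B, L and H into their chains, was at 903, 826 and 609 TPM in YS, 777, 1145 and 809 TPM in FL, and 138, 180 and 57.1 TPM in BM lines. Both embryonic groups lay above all BM lines, with differences of 2.76 (SE 0.39, adjusted p = 0.00288) and 2.98 (SE 0.39, adjusted p = 0.00169), called in all 20 alternatives, and YS against FL did not pass (-0.22, adjusted p = 0.74). It was the 1 gene called among 6 partners in each comparison with BM lines, against 7.57% and 6.01% of all tested genes called higher. Median differences of the 6 partners were 0.04 and 0.37, against 0.11 and 0.09 over all genes. Past the false discovery rate at any fold, 2 partners were higher and 1 lower in YS, and 3 higher and 0 lower in FL than in BM lines. The backgrounds in either direction were 37.9% and 27.6%. Glb1, the beta-galactosidase of the cathepsin A complex, was at 57.8 to 61.8 TPM in BM lines and 85.2 to 102 TPM in the others, under 2-fold (differences 0.64 and 0.64, adjusted p = 0.00424 and 0.00405). Psap was lower in YS than in BM lines (-0.72, adjusted p = 0.0368) and FL lines (-0.83, adjusted p = 0.0617), also under 2-fold. FL against BM lines did not pass for Psap (0.11, adjusted p = 0.762).

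**Figure D4:**
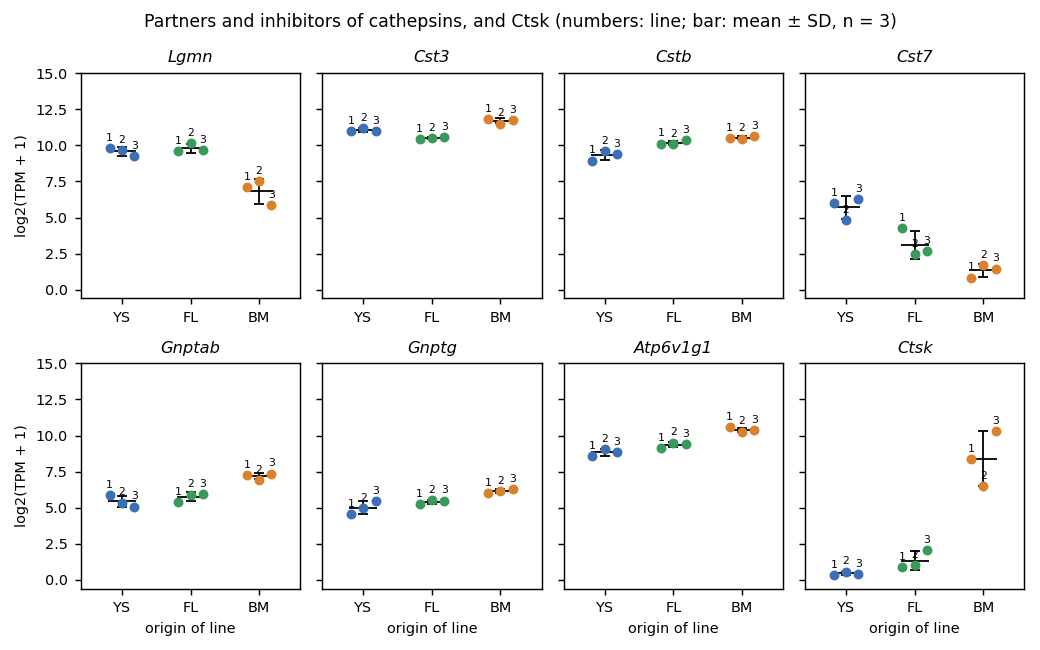
Level of 7 partner and inhibitor genes and of Ctsk in each line, as log2(TPM + 1), with points numbered by line from left to right and bars at the mean ± SD of 3 lines. Lgmn and Cst7 are lowest in the 3 BM lines, and Cst3, Cstb, Gnptab, Gnptg, Atp6v1g1 and Ctsk are highest there.

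Of the 16 listed inhibitors of cysteine cathepsins, 5 were tested and 5 were listed at 0 in all lines. In YS and in FL against BM lines, 2 of the 5 were called higher and 1 lower (backgrounds 7.57% and 5.22%, and 6.01% and 4.30%), with medians of 1.00 and 1.18 against 0.11 and 0.09 over all genes. Each median of 5 is the value of 1 gene, Ctla2b for YS and Ctla2a, which was not called, for FL lines. Cst3 and Cstb had negative differences in both comparisons. Cst3, the secreted cystatin C, was at 2027, 2332 and 2033 TPM in YS, 1366, 1458 and 1502 TPM in FL, and 3681, 2916 and 3499 TPM in BM lines. The 3 groups did not overlap, with FL lines lowest. Cst3 was called lower in FL than in BM lines (difference -1.22, SE 0.13, adjusted p = 0.000849), and was under 2-fold for YS against BM (-0.66, adjusted p = 0.00855) and for YS against FL (0.56, adjusted p = 0.0489). Cstb, the cytosolic stefin B, was at 490, 791 and 668 TPM in YS, 1114, 1077 and 1297 TPM in FL, and 1449, 1418 and 1611 TPM in BM lines. These groups did not overlap either, here with YS lines lowest. Cstb was called lower in YS than in BM lines (difference -1.22, SE 0.18, adjusted p = 0.00301), and YS against FL was under 2-fold (-0.86, adjusted p = 0.0378). The sum of Cst3 and Cstb was also divided by the summed TPM of the cysteine proteases among the members (Ctsb, Ctsc, Ctsf, Ctsh, Ctsl, Ctss and Ctsz). Ctsk, which was high in BM lines alone, and Ctso were left out of this sum. The ratio was 0.394 to 0.506 in YS, 0.292 to 0.358 in FL and 0.483 to 0.553 in BM lines. By this measure FL lines were lowest without overlap, and YS and BM lines overlapped.

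Cst7 encodes cystatin F, an inhibitor that is carried to the lysosome and acts on cathepsin C. It was at 63.4, 27.3 and 77.5 TPM in YS, 17.9, 4.52 and 5.36 TPM in FL, and 0.79, 2.24 and 1.75 TPM in BM lines. Unlike Cst3 and Cstb it was highest in YS lines, and no groups overlapped. YS against BM was called in all alternatives (difference 4.38, SE 0.53, adjusted p = 0.00183). FL against BM was called (1.79, adjusted p = 0.0468) except without FL line 1 (1.23, adjusted p = 0.111), BM line 1 (1.55, adjusted p = 0.158) or BM line 3 (1.86, adjusted p = 0.115) or with a pseudocount of 4 (1.12, adjusted p = 0.104). YS against FL was called (2.58, adjusted p = 0.0399) except without FL line 2 (2.25, adjusted p = 0.121) or FL line 3 (2.35, adjusted p = 0.129) or with the 6 libraries of these groups alone (2.58, adjusted p = 0.144).

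Ctla2b, which encodes a relative of a cathepsin propeptide, was called higher in FL than in BM lines (difference 1.73, adjusted p = 0.0136), with 179 to 512 TPM against 66.9 to 132 TPM. For YS against BM lines the difference was 1.00 (adjusted p = 0.0763), barely over 2-fold, and the call was lost without YS line 1 (0.98, adjusted p = 0.137), YS line 2 (0.91, adjusted p = 0.163), FL line 3 (1.00, adjusted p = 0.102), BM line 1 (1.01, adjusted p = 0.167) or BM line 3 (0.76, adjusted p = 0.233) and under both other scalings. It is nearly identical to Ctla2a, which was not called, so its share of the reads is uncertain.

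The machinery that tags and sorts proenzymes held 13 tested genes. Of these, 2 were called lower in YS and 1 in FL than in BM lines (backgrounds 5.22% and 4.30%) and none higher. At an unadjusted limma p under 0.05, 3 and 3 were higher and 2 and 3 lower, with no share of all genes computed. Past the false discovery rate at any fold, 2 were higher and 2 lower in each comparison, against 37.9% and 27.6% of all genes in either direction. Medians of the 13 genes were -0.00076 and 0.17, against 0.11 and 0.09 over all genes. Gnptab, which encodes the catalytic part of the phosphotransferase that starts the mannose 6-phosphate tag, was at 57.7, 40.0 and 32.9 TPM in YS, 41.2, 59.2 and 61.2 TPM in FL, and 151, 121 and 163 TPM in BM lines. All BM lines were above all others. It was called lower in YS (difference -1.74, SE 0.23, adjusted p = 0.00241) and in FL lines (-1.42, SE 0.23, adjusted p = 0.00421). Gnptg, its other subunit, was at 22.7 to 43.4 TPM in YS, 37.1 to 45.0 TPM in FL and 63.2 to 78.5 TPM in BM lines, called for YS against BM (-1.14, adjusted p = 0.00745) but under 2-fold without YS line 1 (-0.92, adjusted p = 0.00983). FL against BM was under 2-fold (-0.73, adjusted p = 0.0439). M6pr, a receptor for the tag, was at 569, 405 and 617 TPM (means of YS, FL and BM lines) and was not called (-0.19 and -0.61 against BM lines, adjusted p = 0.577 and 0.105). The other 10 genes were not called in any comparison. Among them, Nagpa was higher in YS and FL than in BM lines, past the false discovery rate under 2-fold (0.56 and 0.55, adjusted p = 0.0231 and 0.029). So were Gga1 in YS lines (0.34, adjusted p = 0.0759) and Vps26a in FL lines (0.58, adjusted p = 0.00407).

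Of 18 genes of the V-ATPase, the proton pump that acidifies the lysosome, 3 were called lower in YS than in BM lines (background 5.22%) and none higher (background 7.57%). At an unadjusted limma p under 0.05, 9 were lower and 0 higher, a limit for which the share of all genes was not computed. Past the false discovery rate at any fold, 9 were lower and 0 higher, against 37.9% of all genes in either direction (1692 lower and 2763 higher of 11753). In FL against BM lines 3 were called lower and 1 higher (backgrounds 4.30% and 6.01%), and 4 passed the rate at any fold (background 27.6%). In YS against FL lines 1 was called lower and 0 higher (backgrounds 1.85% and 1.95%). There 8 were lower and 0 higher past the rate at any fold, against 12.8% of all genes in either direction (771 lower and 729 higher of 11753). Median differences of the pump genes were -0.41, -0.09 and -0.46 in the 3 comparisons, against 0.11, 0.09 and 0.02 over all genes. Atp6v1g1, a subunit of the cytosolic sector, was at 387, 539 and 454 TPM in YS, 570, 732 and 682 TPM in FL, and 1514, 1240 and 1340 TPM in BM lines. No groups overlapped. The difference was -1.58 (SE 0.15, adjusted p = 0.000883) for YS against BM and -1.05 (adjusted p = 0.00289) for FL against BM, the latter under 2-fold without FL line 1 (-0.94, adjusted p = 0.0112) or BM line 1 (-0.97, adjusted p = 0.0186). Atp6v0d2, a membrane-sector subunit best known from osteoclasts, was at 0.50 to 4.59 TPM in YS, 2.94 to 3.13 TPM in FL and 6.34 to 23.8 TPM in BM lines (-2.25, adjusted p = 0.0166, and -1.81, adjusted p = 0.0444). Its call in FL lines was lost without FL line 1 (-1.79, adjusted p = 0.105), FL line 3 (-1.82, adjusted p = 0.1), BM line 1 (-1.73, adjusted p = 0.136) or BM line 3 (-1.41, adjusted p = 0.158).

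The remaining calls among the pump genes differed by comparison. Atp6v0c, the proteolipid of the membrane ring, was at 4.22 to 13.3 TPM in YS against 16.5 to 61.5 TPM in BM lines (-1.92, adjusted p = 0.0257). YS against FL, with 24.1 to 35.8 TPM in FL lines, was called as well (-2.0, adjusted p = 0.0614), and that call was lost without YS line 1 (-1.71, adjusted p = 0.115), YS line 3 (-1.84, adjusted p = 0.1), FL line 2 (-1.97, adjusted p = 0.163), FL line 3 (-1.87, adjusted p = 0.171) or BM line 1 (-2.0, adjusted p = 0.101). Tcirg1, the a3 subunit, was called lower in FL lines, with 136 to 253 TPM against 349 to 412 TPM in BM lines (-1.02, adjusted p = 0.00849), under 2-fold without FL line 2 (-0.80, adjusted p = 0.0123) or BM line 3 (-0.97, adjusted p = 0.0429). Atp6ap2, an accessory subunit, was called higher in FL lines, with 269 to 334 TPM against 130 to 140 TPM in BM lines (1.19, adjusted p = 0.00585).

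Among MHC class II genes, which cathepsins S, L and F serve by trimming the invariant chain, 4 of 8 listed were tested. H2-Aa, H2-Ab1, H2-Eb1 and Ciita were under the minimum, with at most 0.86, 0.79, 1.3 and 0.74 TPM in any line. Cd74, the invariant chain itself, was at 129, 218 and 450 TPM in YS, 57.5, 7.69 and 81.6 TPM in FL, and 20.5, 68.6 and 27.8 TPM in BM lines. The YS lines were higher than all others, whereas Ctss was lowest in them. It was called higher in YS than in BM lines (difference 2.74, SE 0.85, adjusted p = 0.0434), except without YS line 3 (2.27, adjusted p = 0.106), BM line 1 (2.39, adjusted p = 0.142) or BM line 3 (2.60, adjusted p = 0.126). YS against FL was called at an adjusted p of 0.093 (difference 2.75), and that call was lost in 8 of the 9 fits without a line, all but that without FL line 1, with adjusted p-values from 0.1 to 0.191 and the smallest difference, 1.75, without FL line 2. H2-DMb2, a chain of the peptide-loading catalyst, was called lower in YS than in FL lines (-1.48, adjusted p = 0.057) on levels of 0.40 to 2.15 against 2.62 to 6.26 TPM, and lost the call without YS line 1 (-1.34, adjusted p = 0.101), FL line 2 (-1.26, adjusted p = 0.166), FL line 3 (-1.42, adjusted p = 0.159), BM line 1 (-1.48, adjusted p = 0.1) or BM line 3 (-1.48, adjusted p = 0.101).

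Ctsk, which encodes cathepsin K, the collagen-cutting protease of osteoclasts, is the gene next to Ctss on chromosome 3 and gives a reference for the members. It was at 0.28, 0.49 and 0.34 TPM in YS, 0.84, 1.02 and 3.24 TPM in FL, and 333, 90.2 and 1270 TPM in BM lines. The BM lines were above all others and 14.1-fold apart among themselves. Its differences were -7.95 (SE 0.80, adjusted p = 0.000963) for YS against BM and -7.08 (SE 0.80, adjusted p = 0.00114) for FL against BM, larger in size than those of Ctss. BM line 2 had the lowest Ctsk and Ctss and the highest Ctsc of the BM lines, and BM line 3 the highest Ctsk and Ctss and the lowest Ctsc. Over the 9 libraries Ctsk had a Pearson r of 0.89 with Ctss and -0.97 with Ctsc on the log2 scale, values that share the grouping of the lines. Golph3l, further along from Ctss, was lower in YS and FL than in BM lines, past the false discovery rate under 2-fold (-0.95 and -0.96, adjusted p = 0.00971 and 0.01), Arnt on the far side of Ctsk was not (-0.15 and 0.16, adjusted p = 0.595 and 0.627), and Hormad1 was not tested.

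Next to Ctsc on chromosome 7, Tyr, Grm5 and Rab38 were under the minimum level. Tmem135 differed by -0.37 between YS and BM lines (adjusted p = 0.0786), opposite in sign to Ctsc. Next to Ctsf on chromosome 19, Ccs was lower in both embryonic groups than in BM lines, under 2-fold (-0.77 and -0.91, adjusted p = 0.0048 and 0.00246). Zdhhc24 differed by -0.69 (adjusted p = 0.0835) and -0.63 (adjusted p = 0.133). Next to Ctsh on chromosome 9, Morf4l1 was the one tested neighbour (0.29 and 0.31, adjusted p = 0.193 and 0.207).

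Of the 13 other genes of the cathepsin families, 9 were listed at 0 in all lines and Ctsk and Ctso were tested. Ctso, which encodes the little-studied cathepsin O, was at 19.6, 49.0 and 25.0 TPM in YS, 37.6, 46.5 and 49.3 TPM in FL, and 74.98, 73.9 and 76.1 TPM in BM lines. BM lines were above all others and nearly equal to each other. Ctso was called lower in YS than in BM lines (difference -1.34, SE 0.29, adjusted p = 0.0114), and the other comparisons were not called (-0.75 and -0.60, adjusted p = 0.102 and 0.228).

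For each called cathepsin, the 3 tested genes with the most similar pattern over the 9 libraries were listed by Pearson r of log2(TPM + 1). For Ctsc these were Igf1, a growth factor (r = 0.99), Clec4a3, a C-type lectin receptor (0.98), and Myo7a, an unconventional myosin (0.98). Igf1, at 171 to 280 TPM in YS, 191 to 225 TPM in FL and 24.8 to 82.3 TPM in BM lines, followed Ctsc also in having BM line 2 highest and BM line 3 lowest of the BM lines. For Ctss they were Atp6v0e, a V-ATPase subunit (0.99), and the transcripts 5330426P16Rik (0.99) and 9030025P20Rik (0.98). Atp6v0e was at 309 to 428 TPM in YS, 473 to 565 TPM in FL and 616 to 738 TPM in BM lines. For Ctsh they were Cfb, complement factor B (0.99), Scimp, an adaptor protein (0.99), and Parp1, a poly(ADP-ribose) polymerase (0.99), and for Ctsf they were Jag2, a Notch ligand (0.97), Isyna1, inositol-3-phosphate synthase (0.95), and Itgax, an integrin subunit (0.95). Like Ctsh and Ctsf, each of these 6 genes was highest in YS line 1. These are the highest values among 11753 genes over 9 libraries that fall into 3 groups, given as a description.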

How the data were processed

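Poly(A) RNA of 9 macrophage lines was sequenced from directional libraries. The authors deposited 1 table of TPM per gene symbol. The submitters' processing notes name Trim Galore 0.6.6, STAR 2.7.9a and RSEM 1.3.3, with no role or order. The genome build and annotation were not given in the sources used here. The study used DESeq2 on read counts, which were not used here, and its thresholds were kept.

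The deposited TPM were taken to log2 after adding 1. Genes that reached 1 TPM in 3 or more libraries were kept, and groups were compared with limma 3.58.1 in R 4.3.3 (1 model over 9 libraries, empirical Bayes with an intensity trend, two-sided, Benjamini-Hochberg over the 11753 genes). Adjusted p-values and SE are from this fit. Calls needed a false discovery rate under 0.1 and over 2-fold. The fit was tested on simulated data. A gene's background percentage is the share of all tested genes that met the same criterion.

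Named were all members, Ctsk, called genes of hand-written lists (at most the 4 largest per list and comparison) with Lgmn, Cst3, Cstb, Gnptab, M6pr, Tfeb, Tfe3 and Mitf, the 3 most similar genes of each called member and its nearest neighbours. Glb1, Psap, Nagpa, Gga1, Vps26a, Ctla2a and Spi1 were added after their values were seen. So were the single markers Fcgr1, Mertk, Lyz2, Nfatc1 and Dcstamp, and the likeness examples' levels. The members and lists were chosen with earlier results of these data known. Neighbours and promoters are from RefSeq (GRCm38.p6). Of the 24411 symbols, 23194 matched a RefSeq gene. Protein sequences were not used here.

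Alternatives were pseudocounts of 0.1 and 4, no filter or 5 TPM, quantile normalization, median-of-ratios scaling, no trend, 6 libraries, a replicate block, no fold threshold, a rate of 0.05, and each line left out. The alternative without a fold threshold cannot remove a call. Leaving out a line of the group outside a comparison changes its p-values and not its differences.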

Additional observations from a re-analysis of the deposited data

How the results depend on the processing

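Genes called numbered 1504 for YS against BM, 1211 for FL against BM and 446 for YS against FL. Without a fold threshold they were 4455, 3247 and 1500. For YS against FL they were 280 with a pseudocount of 4, 81 with the 6 libraries alone and 234 at a rate of 0.05. With 1 line left out they ranged from 1085 to 1556, 845 to 1301 and 175 to 549, the last being lowest without FL line 2 (175) and FL line 3 (178), and 285 and 294 without BM lines 1 and 3. Of the calls in YS against BM, 890 were higher and 614 lower (59.2% higher). With quantile normalization 724 were higher and 763 lower (48.7%), while the median over all genes moved from 0.11 to -0.01. Cathepsins called in YS against BM, 3 in all, were 2 without a filter, with a filter of 5 TPM, with the 6 libraries alone and at a rate of 0.05, 4 without a fold threshold, and 2 to 3 with 1 line left out. In FL against BM, 2 became 1 with a pseudocount of 4, without a filter, with the replicate block and at a rate of 0.05, and 1 to 2 with 1 line left out. In YS against FL, 1 became 0 with the 6 libraries alone, 3 without a fold threshold, 0 at a rate of 0.05, and 0 to 2 with 1 line left out. Where the number of cathepsins fell in YS against BM, Ctsh was the member that lost its call or could not be tested. In the other comparisons the lost member was Ctsf. Ctsc and Ctss kept their calls in YS against BM in all 20 alternatives. The cause of these changes was not tested, beyond fewer samples or another threshold. Some small differences changed sign. With 1 line left out, Ctsb in YS against BM ran from -0.23 to 0.17 (0.17 without YS line 3, 0.0011 without BM line 3), Ctsz in FL against BM from -0.36 to 0.13 (0.13 without FL line 2), Ctsz in YS against FL from -0.19 to 0.29 (-0.19 without FL line 2), and Ctsl in YS against FL from -0.37 to 0.15 (0.15 without YS line 1, 0.052 without FL line 3). With quantile normalization Ctsz in YS against BM was 0.015 and Ctsd in YS against FL 0.041. None of these was called. Of the values of single genes under the alternatives, 977 kept direction and call, 76 lost the call, 6 gained one and 8 changed sign. Line numbers do not pair the lines: deviations of same-numbered lines from their group means correlated by -0.12 to 0.088 over 9 pairs. With the replicate block 1503, 1191 and 409 genes were called, and of the named genes Ctsf in FL against BM and Cd74 in YS against FL (adjusted p = 0.119) lost their calls. Apart from left-out lines and the rate of 0.05, Ctla2b in YS against BM also lost its call with a pseudocount of 4 and without a filter, H2-DMb2 in YS against FL with a pseudocount of 4 and with 6 libraries, Atp6v0c in YS against FL with 6 libraries, and Cd74 in YS against FL without a filter, without the trend and with 6 libraries. TPM gives no read depth, so the precision of low genes such as Ctsh, Ctsf and Ctse is unknown.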
